A study of Mus musculus with 27 samples.

Results

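The comparison set 19 B-cell lymphomas against 4 samples of resting splenic B cells, which together made up 23 of the 27 samples of the series. The lymphomas arose in mice that the labels call c-myc Igh transgenic. Of the 19, 7 were hv, 7 cr and 4 co, and 1 lung lymphoma had labels that disagreed between hv and co. They were taken from lung (12 samples) or from peripheral or mesenteric lymph nodes (7 samples), and the normal cells all came from spleen, so malignancy and site cannot be told apart. The remaining 4 samples were splenic B cells kept for 2 days with LPS, a lipopolysaccharide of bacteria that makes B cells grow and divide. The LPS-treated and the resting samples were non-malignant, 1 of each from wt, cr, co and hv mice, and values of these groups are given below in that order. The labels name the same transgene for the cr, co and hv mice that gave normal cells and none for wt, so 3 of the 4 resting samples and 3 of the 4 LPS-treated samples carried it too. The sources used here do not give the meaning of hv, cr and co. All samples were purified by B220, a surface form of CD45 that B cells carry. LPS treatment and the 2 days that passed cannot be told apart. Whether each sample is a mouse of its own is not in the labels, and p-values therefore reflect only the sample-to-sample spread, which may be technical. The question was which genes set the lymphomas apart from resting cells without also moving in cells made to divide by LPS, and which of them do not belong to red cells or myeloid cells.

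A resting B cell is small and quiescent, holds its antigen receptor and MHC class II at the surface and waits for antigen and for help through CD40. LPS, signalling through TLR4, brings such a cell into the cycle and toward antibody secretion, with NF-kappaB and MYC driving the genes of growth and survival. A lymphoma driven by MYC from the immunoglobulin heavy chain locus also grows and divides, and it descends from 1 founder cell with 1 rearranged receptor. Setting both states against resting cells shows which genes also moved after 2 days of LPS and which moved in the lymphomas alone. B cells dividing for other reasons were not measured.

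RNA abundance was deposited as TPM, a share of all transcripts scaled to the same total in each sample and adjusted for transcript length, and transcripts were added up for each gene. Steps in the TPM values put the depth at about 11537100 to 23688200 read pairs in the lymphomas, 21746300 to 32022400 in the LPS-treated and 21467200 to 23509200 in the resting samples. The predicted gene Gm20594 took 10.92 to 34.26% of TPM across samples. Gm10800, a repeat-like predicted gene, took over 1% in 4 libraries, at 3.078% in the mesenteric node lymphoma cr T6, 18.58% in the cr and 2.696% in the hv LPS sample, and 3.646% in the wt resting sample. The B-cell label held: summed TPM of 10 B-cell markers was 1484 to 4231 in the lymphomas (median 2544), 1239 to 2456 after LPS (median 1765) and 2974 to 5611 in resting cells (median 3850). Of these markers Ebf1, Ptprc and Cd22 were called lower in the lymphomas, and those not called included Cd79a, Cd79b, Ms4a1, Pax5, Blnk and Cd37. In bulk RNA, fewer cells of a type and less RNA per cell cannot be told apart.

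Transcripts of red cells, macrophages, neutrophils, T cells and NK cells had their highest median sums in the resting samples. The 42 measured erythroid genes summed to 190.05 to 1368 TPM in the lymphomas (median 375), 449 to 2494 after LPS (median 1947) and 12407 to 116900 in resting cells (median 86349), and 38 of the 40 tested were called lower in the lymphomas. Macrophage markers had median sums of 86.8, 61.2 and 826 TPM in lymphomas, LPS-treated and resting cells, with 13 of 15 called lower in the lymphomas. Neutrophil and monocyte markers had median sums of 65.0, 30.3 and 366 TPM in the same order, with 9 of 14 called lower. T-cell markers had median sums of 159, 43.1 and 295 TPM with 3 of 11 lower, and NK-cell markers 3.90, 2.13 and 44.7 TPM with 7 of 9 lower. Over all genes tested, 17.4% were called lower. Markers that few lymphomas reached at 1 TPM entered the test through the resting samples, so the filter favoured a fall. Haemoglobin genes took 0.017 to 0.22% of TPM after LPS and 1.148, 10.862, 5.575 and 10.989% in the resting samples, whose macrophage sums were 250.3, 1475, 442 and 1210 TPM. Resting values in cr and hv both exceeded those in wt and co, as haemoglobin and macrophage sums did, in 11.5% of all genes tested, 12.8% of those called higher and 26% of those called lower in the lymphomas. The part of these cells in the changes was not tested. The erythroid, macrophage, neutrophil, T-cell and NK-cell sums had a lower median after LPS as well as in the lymphomas. None of the genes placed below in the opposite or level classes was on a marker list of another cell type.

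Of 13239 genes tested by limma on log2(TPM + 1), 4229 (31.9%) passed an adjusted p of 0.05, with 1921 (14.5%) higher and 2308 (17.4%) lower in the lymphomas. The median log2 fold change of all genes tested was -0.06. Median-of-ratios scaling moved that median by 0.11 and gave 52.5% of calls as higher in place of 45.4%. Rescaling TPM without Gm20594, Gm10800 and haemoglobin moved it by -0.13 and gave 31.9% of calls as higher. All 19 lymphomas lay above all 4 resting samples in 529 genes (4%) and below them in 651 (4.92%). The lung lymphomas alone gave 2153 higher and 1873 lower genes against the resting cells, and the node lymphomas alone 1215 and 2655. Sample names were written in 2 styles, a possible batch: the 9 lymphomas with joined names, all from lung, gave 2462 higher and 2170 lower genes, and the 10 with separated names 1234 and 1997. Without the wt resting sample 2749 genes were called, and without the 4 libraries rich in Gm10800 2746 were called.

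Most of these genes moved the same way when resting cells were treated with LPS. The exceptions included Bhlhe41, Hepacam2 and Inppl1 upward and immunoglobulin segments, Oasl1, Il21r and Cd40 downward, which held their level after LPS, and Man1c1 and Adssl1 upward and Ccl22 and Pkp4 downward, which went the other way. Each called gene was placed by what it did between LPS-treated and resting cells, a contrast in which 6981 of 11999 genes (58.2%) were called. That contrast shares the 4 resting samples with the lymphoma comparison, and its values chose the classes, so they are given as descriptions. A gene was opposite when called after LPS with the other sign, and level when not called with a 95% confidence interval within a 2-fold change either way. The interval of a level gene could still exclude 0, so level does not mean unmoved. The class low held genes under 1 TPM in all 8 normal samples. Such genes entered the test only through the lymphomas, so their direction was fixed by the filter, and none could be among the lower genes. In all, 67 of the higher genes had no resting sample at 1 TPM and 122 of the lower genes no lymphoma. Most calls went the same way after LPS, 1642 of the higher and 1717 of the lower genes. Among higher genes 9 were opposite (0.068% of genes tested), 162 level (1.22%), 36 low and 72 unresolved. Among lower genes 10 were opposite (0.0755%), 244 level (1.84%) and 337 unresolved. Lymphomas and LPS-treated cells were also compared directly, with the same LPS samples that set the classes. It called 1782 of 12880 genes (13.8%). For the opposite genes the direction of this difference was fixed by how they were chosen, so it is given for them without a test. Of the level genes, 55 of the 162 higher and 122 of the 244 lower passed it in the direction of their call. Level genes were chosen for LPS values near resting ones, so this difference repeats much of the one against resting cells. Its adjusted p, here and for single level genes below, is no independent support. Immunoglobulin genes made up 64 of the 244 lower level and 4 of the 10 lower opposite genes. Leaving out any 1 resting sample gave 78 to 116 higher level, 107 to 149 lower level, 1 to 3 higher opposite and 6 to 11 lower opposite genes, and leaving out the libraries rich in Gm10800 gave 84, 91, 3 and 12. Not all of these genes were the same ones. Without 1 resting sample, 57 to 101 of the 162 higher level and 89 to 131 of the 244 lower level genes kept their class. Without the libraries rich in Gm10800 72 and 55 did, with median-of-ratios scaling 85 and 190, and with rescaling 69 and 151. Of the 9 higher opposite genes, 1 to 3 stayed without 1 resting sample, 8 with median-of-ratios scaling and 4 with rescaling. Of the 10 lower ones, 5 to 7, 9 and 9 did.

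**Figure D1:**
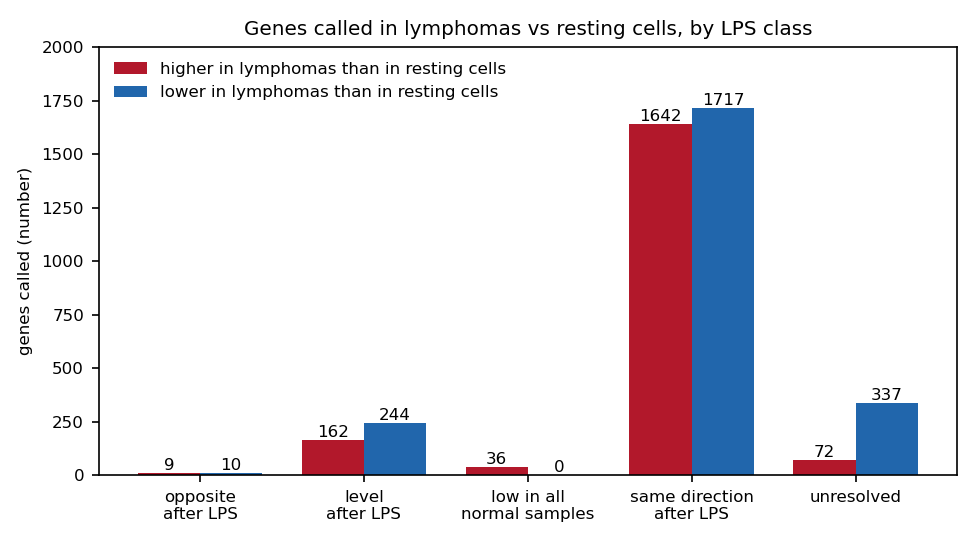
Number of genes called in lymphomas against resting cells (vertical axis), by their class after LPS (horizontal axis), with genes higher in the lymphomas in red and lower in blue. The same-direction class holds 1642 and 1717 genes, the level class 162 and 244, and the opposite class 9 and 10.

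Among genes that rose in the lymphomas and were level after LPS, the largest differences without overlap between the groups belonged to the predicted gene Gm10451, whose function is not annotated here (log2 fold change 3.16 ± 0.30, adjusted p = 1.8e-08; named after its values were seen), and to Bhlhe41 (chromosome 6, 145858243 to 145865558 of GRCm38), encoding a basic helix-loop-helix repressor of transcription known from B-1a cells. It ranged over 30.5 to 144 TPM with a median of 55.9 in the lymphomas, against 5.22, 20.1, 11.2 and 13.8 TPM after LPS and 9.97, 16.4, 9.04 and 7.29 TPM in resting cells. Every lymphoma lay above every normal sample (log2 fold change 2.54 ± 0.35, adjusted p = 5.7e-06). Fold changes and differences carry their SE and are on the log2(TPM + 1) scale, where changes of low genes come out too small. The difference from LPS-treated cells was 2.39 ± 0.37, adjusted p = 6.9e-05. Against resting cells it was 2.57 in lung and 2.47 in node lymphomas, and 2.47 and 2.60 in lymphomas with joined and separated names.

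Hepacam2 (chromosome 6, 3457089 to 3498297) encodes an adhesion molecule of the immunoglobulin superfamily. Its values were 32.4 to 209 TPM with a median of 62.3 in the lymphomas, against 4.91, 11.9, 7.899 and 8.27 TPM after LPS and 10.5, 13.5, 14.1 and 7.198 TPM in resting cells. No lymphoma overlapped either normal group (log2 fold change 2.52 ± 0.32, adjusted p = 1.7e-06), and the difference from LPS-treated cells was 2.95 ± 0.32, adjusted p = 6.8e-07. It was 2.47 in lung and 2.62 in node lymphomas against resting cells, and 2.30 and 2.72 for joined and separated names.

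Inppl1 (chromosome 7, 101822632 to 101838076) encodes SHIP2, a phosphatase that removes the 5-phosphate of phosphatidylinositol trisphosphate and so acts on the PI3K pathway. It was measured at 7.56 to 52.5 TPM with a median of 23.3 in the lymphomas, against 3.51, 3.599, 3.36 and 4.12 TPM after LPS and 4.63, 6.21, 5.04 and 4.54 TPM in resting cells. The lymphomas spread widely but stayed above both normal groups (log2 fold change 1.88 ± 0.47, adjusted p = 0.00346), with a difference from LPS-treated cells of 2.26 ± 0.47, adjusted p = 0.00169. Pik3r2, encoding the regulatory PI3K subunit p85-beta, also lay higher in all 19 lymphomas (log2 fold change 1.36 ± 0.19, adjusted p = 8.4e-06), though its class was same direction, with an LPS change of 0.48 and a difference between lymphomas and LPS of 0.88 ± 0.19, adjusted p = 0.0027. Rheb, the GTPase that activates mTORC1, was at 35.3 to 65.98 TPM with a median of 45.6 in the lymphomas, against 30.1, 29.1, 43.5 and 39.4 TPM after LPS and 32.3, 24.1, 22.04 and 26.96 TPM in resting cells. It rose by a smaller amount (log2 fold change 0.87 ± 0.16, adjusted p = 2.1e-04), and its difference from LPS-treated cells did not pass (0.46 ± 0.16, adjusted p = 0.0625).

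The other genes of this kind spanned membrane, mitochondrial and nuclear proteins. Plp2, encoding a membrane proteolipid, was at 63.1 to 235 TPM with a median of 123 in the lymphomas, against 59.2, 57.2, 58.2 and 68.1 TPM after LPS and 43.5, 55.4, 58.8 and 39.5 TPM in resting cells. Plp2 had a log2 fold change of 1.22 ± 0.27 (adjusted p = 0.00106). 18 of 19 lymphomas were above the highest LPS sample. Acads, encoding the short-chain acyl-CoA dehydrogenase of mitochondrial fatty acid oxidation, was at 16.5 to 36.5 TPM with a median of 24.9 in the lymphomas, against 12.7, 13.6, 11.4 and 14.5 TPM after LPS and 8.85, 11.5, 8.98 and 10.2 TPM in resting cells, with no overlap. Acads had a log2 fold change of 1.23 ± 0.18 (adjusted p = 9.9e-06). Its LPS interval excluded 0 on the same side, with a change of 0.37 (0.008 to 0.73). Ak3, a mitochondrial adenylate kinase gene, rose (log2 fold change 0.99 ± 0.23, adjusted p = 0.00199), and Nudt3, encoding a hydrolase of inositol phosphates, also rose (log2 fold change 0.90 ± 0.19, adjusted p = 7.5e-04). H2afv, encoding an H2A.Z histone variant, rose (log2 fold change 1.13 ± 0.29, adjusted p = 0.00445), and so did the zinc finger genes Zbtb12 (log2 fold change 1.07 ± 0.24, adjusted p = 0.00122) and Zfp64 (log2 fold change 1.01 ± 0.21, adjusted p = 8.0e-04). Each of these separated the 2 groups without overlap. Differences from LPS-treated cells passed for Acads (0.86 ± 0.18, adjusted p = 0.00162), Plp2, H2afv, Zbtb12, Zfp64 and Nudt3, and did not for Ak3 (0.67 ± 0.23, adjusted p = 0.0565). Cpn1, encoding carboxypeptidase N, belonged to the low class, with 0.137 to 50.2 TPM with a median of 1.94 in the lymphomas, against 0, 0.209, 0 and 0.0757 TPM after LPS and 0.0642, 0.113, 0.0268 and 0.0504 TPM in resting cells. Its lowest lymphoma was just above the highest resting sample. Cpn1 entered the test only through the lymphomas, so no test is given.

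**Figure D2:**
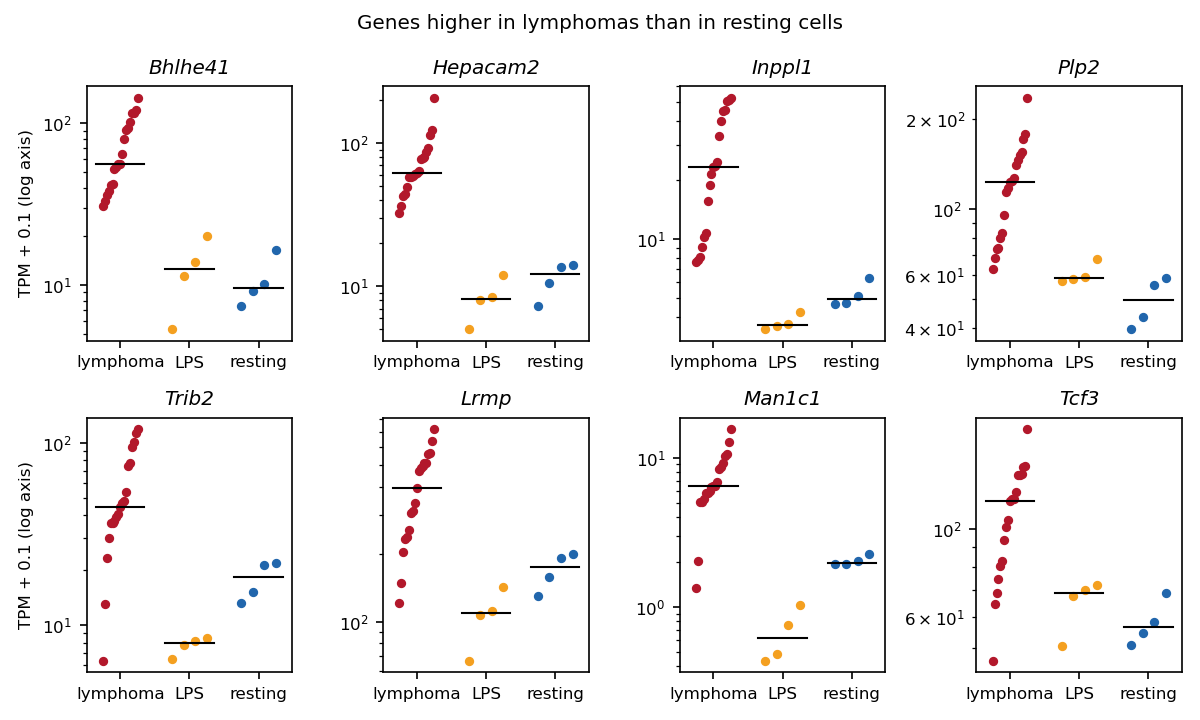
TPM plus 0.1 on a log axis for 8 genes higher in the lymphomas, with 1 point per sample and a black line at the median, for 19 lymphomas, 4 LPS-treated and 4 resting samples. Bhlhe41, Hepacam2, Inppl1 and Plp2 show no lymphoma within the resting range, and Trib2, Lrmp and Man1c1 are lower after LPS than in resting cells.

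Some further level genes rose with overlap, and they are named after their values were seen. Ptprs, encoding a receptor-type tyrosine phosphatase, was at 1.76 to 82.5 TPM with a median of 26.2 in the lymphomas, against 3.84, 7.91, 4.68 and 5.79 TPM after LPS and 2.87, 8.83, 4.72 and 5.302 TPM in resting cells, with 17 of 19 lymphomas above the highest resting sample (log2 fold change 1.95 ± 0.53, adjusted p = 0.00698). Pafah1b3, encoding a catalytic subunit of a platelet-activating factor acetylhydrolase, was at 31.7 to 303 TPM with a median of 116 in the lymphomas, against 28.4, 31.7, 35.99 and 27.7 TPM after LPS and 31.2, 28.2, 33.9 and 17 TPM in resting cells. Pafah1b3 had a log2 fold change of 1.92 ± 0.42 (adjusted p = 0.00104). Here too 17 of 19 lymphomas were above all resting samples. The call of Ptprs was lost without the libraries rich in Gm10800 (adjusted p = 0.0525), where that of Pafah1b3 was kept.

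Among 44 tested transcription factors of the B lineage, 4 rose and 15 fell, against 14.5% and 17.4% of all genes. Without the libraries rich in Gm10800, 8 fell. The list's median log2 fold change was -0.50. Beside Bhlhe41, the level riser was Tcf3, encoding the E2A proteins that set up the B-cell program, at 46.2 to 179.8 TPM with a median of 118 in the lymphomas, against 69.9, 50.5, 67.6 and 72.3 TPM after LPS and 58.1, 54.3, 68.7 and 50.8 TPM in resting cells. Tcf3 had a log2 fold change of 0.84 ± 0.25 (adjusted p = 0.0112). 16 of 19 lymphomas were above the highest resting sample, and its call was lost with node lymphomas alone (adjusted p = 0.0933) and with separated names alone (adjusted p = 0.0733). The difference from LPS-treated cells did not pass (0.68 ± 0.25, adjusted p = 0.0672). Myb, a proto-oncogene of early blood cells, was at 0.624 to 111 TPM with a median of 63.5 in the lymphomas, against 8.67, 12.2, 12.6 and 13.8 TPM after LPS and 2.91, 4.82, 7.98 and 3.65 TPM in resting cells, so 16 of 19 lymphomas exceeded every normal sample. Myb had a log2 fold change of 2.79 ± 0.83 (adjusted p = 0.012). Its call was lost without the libraries rich in Gm10800, with separated names alone and without the wt resting sample (adjusted p = 0.0621, 0.123 and 0.0523). Its LPS change went the same way, and the difference from LPS-treated cells did not pass (1.61 ± 0.83, adjusted p = 0.209). Smarca4, encoding the chromatin remodeller BRG1, rose slightly (log2 fold change 0.69 ± 0.23, adjusted p = 0.0228) and was level after LPS, with the call lost without the cr or the hv resting sample (adjusted p = 0.0622 and 0.0934). Its difference from LPS-treated cells did not pass (0.37 ± 0.23, adjusted p = 0.306). Of the genes that fell, Irf4 and Runx3 were level. Irf4, needed for plasma cell and germinal centre fates, was at 22.3 to 120.0 TPM with a median of 55.1 in the lymphomas, against 133, 97.8, 97.1 and 109.7 TPM after LPS and 230.1, 78.03, 79.5 and 63.8 TPM in resting cells. Irf4 had a log2 fold change of -0.88 ± 0.33 (adjusted p = 0.0443). The wt resting sample stood far above the other resting ones, and without it the adjusted p was 0.343. Leaving out the cr or the co resting sample also ended the call (adjusted p = 0.0607 and 0.0626). Runx3, a Runt-domain factor, fell (log2 fold change -0.93 ± 0.22, adjusted p = 0.00248), with 17 of 19 lymphomas below the lowest resting sample.

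The 9 genes that rose in the lymphomas and went down after LPS all overlapped the resting range in at least 1 lymphoma. Man1c1 and Man2a2, which encode mannosidases that trim N-glycans in the Golgi, were both among them. Man1c1 was at 1.25 to 15.4 TPM with a median of 6.34 in the lymphomas, against 0.336, 0.926, 0.382 and 0.652 TPM after LPS and 1.84, 2.18, 1.93 and 1.84 TPM in resting cells, so 17 of 19 lymphomas were above and all LPS samples below the resting range (log2 fold change 1.34 ± 0.34, adjusted p = 0.00419; difference from LPS 2.25 ± 0.35). Man2a2 was at 14.2 to 82.95 TPM with a median of 28.5 in the lymphomas, against 9.02, 12.2, 9.72 and 12.7 TPM after LPS and 17.1, 18.4, 19.8 and 12.2 TPM in resting cells, with 18 of 19 lymphomas above the resting range. Man2a2 had a log2 fold change of 0.89 ± 0.30 (adjusted p = 0.0269). Trib2, encoding a Tribbles pseudokinase that acts on protein degradation and is repressed in some settings by PI3K signals, was at 6.25 to 119 TPM with a median of 44.5 in the lymphomas, against 8.37, 7.62, 6.39 and 8.09 TPM after LPS and 21.2, 15.1, 21.7 and 13.1 TPM in resting cells. Trib2 had a log2 fold change of 1.30 ± 0.49 (adjusted p = 0.0461). Of the lymphomas, 17 lay above all resting samples and 2 below all of them. Of 20 tested genes on a list of PI3K brakes and FOXO genes, Trib2 alone rose, fewer than the 14.5% of all genes would give. Inppl1, higher in the lymphomas, was not on this list. Of the 20, 8 fell, against 17.4% of all genes. Without the libraries rich in Gm10800 none rose and 5 fell, against 10.7% and 10.4% of all genes in that setting.

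Lrmp, encoding a lymphoid membrane protein of the endoplasmic reticulum, was at 121 to 723 TPM with a median of 393 in the lymphomas, against 142, 66.7, 111 and 107 TPM after LPS and 200.4, 158, 192 and 129 TPM in resting cells. Lrmp had a log2 fold change of 1.08 ± 0.35 (adjusted p = 0.0215). Cdc42ep4, encoding an effector of the GTPase CDC42, was at 3.14 to 17.4 TPM with a median of 6.58 in the lymphomas, against 1.17, 1.35, 1.28 and 1.63 TPM after LPS and 1.94, 3.23, 2.36 and 3.37 TPM in resting cells. Cdc42ep4 had a log2 fold change of 1.16 ± 0.31 (adjusted p = 0.00576). 18 of 19 lymphomas were above the resting range. Adssl1, encoding an adenylosuccinate synthase of purine synthesis, was at 2.68 to 39.7 TPM with a median of 8.67 in the lymphomas, against 0.946, 0.628, 0.847 and 1.01 TPM after LPS and 1.89, 3.69, 3.64 and 3.01 TPM in resting cells. Adssl1 had a log2 fold change of 1.35 ± 0.44 (adjusted p = 0.0217). Aldh2, the mitochondrial aldehyde dehydrogenase gene, rose (log2 fold change 0.63 ± 0.24, adjusted p = 0.0498) with an LPS change of -1.50, and Atp13a2, a lysosomal ATPase gene, rose (log2 fold change 0.69 ± 0.25, adjusted p = 0.0331) with an LPS change of -0.54. The unprocessed pseudogene Gm28437 rose (log2 fold change 0.91 ± 0.31, adjusted p = 0.0277) with an LPS change of -2.44; reads of a near-identical copy could be counted with it. Only Man1c1 and Cdc42ep4 of the 9 kept their call against resting cells under all 18 other settings, and the calls of the other 7, Trib2 included (adjusted p = 0.0852 without the wt resting sample), were lost under at least 4, in each case without 1 or more of the resting samples.

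The class low held 36 genes, 11 of them pseudogenes. It included 2 fibroblast markers, Col3a1 (collagen III) and Sparc (a matrix protein). Col3a1 was at 0.0272 to 36.6 TPM with a median of 4.46 in the lymphomas, against 0.0612, 0.0607, 0 and 0.0249 TPM after LPS and 0.0393, 0.116, 0.114 and 0.0747 TPM in resting cells, and Sparc was at 0.437 to 5.06 TPM with a median of 1.63 in the lymphomas, against 0.169, 0.784, 0.0166 and 0.201 TPM after LPS and 0.401, 0.709, 0.291 and 0.517 TPM in resting cells. Both entered the test only through the lymphomas, so no test is given for them. Fibroblast marker sums moved with them, at 2.09 to 62.7 TPM in the lymphomas (median 8.40), 0.290 to 3.25 after LPS and 1.66 to 6.76 in resting cells. The part of stromal cells in this class was not tested.

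About as many receptors for cytokines and TNF family ligands fell in the lymphomas as were not called. Those for CD40 ligand and interleukin 21 fell and were in the level class after LPS. Of 31 tested, 16 fell, 4 of them level after LPS, 15 were not called and none rose (median log2 fold change -1.13), against 17.4% lower over all genes. Without the libraries rich in Gm10800 13 fell, against 10.4% of all genes. Cd40 (chromosome 2, 165055627 to 165072948), the receptor for T-cell help, was at 1.02 to 56.2 TPM with a median of 11.9 in the lymphomas, against 122, 39.4, 71.97 and 63.8 TPM after LPS and 96.7, 68.5, 85.2 and 51.4 TPM in resting cells. 18 of 19 lymphomas were below the lowest resting sample and 17 below the lowest LPS sample. Cd40 had a log2 fold change of -2.70 ± 0.82 (adjusted p = 0.0143) and a difference from LPS-treated cells of -2.61 ± 0.84 (adjusted p = 0.0391). The call was lost without the wt resting sample (adjusted p = 0.0564), with a log2 fold change of -2.57. Node lymphomas were lower (-2.97) than lung lymphomas (-2.55) against the same resting cells, a difference between sites that was not tested; name styles gave -2.62 for joined and -2.77 for separated.

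Il21r (chromosome 7, 125603429 to 125633570), the receptor for the helper cytokine interleukin 21, was at 1.66 to 42.6 TPM with a median of 7.93 in the lymphomas, against 67.2, 36.2, 38.6 and 39.3 TPM after LPS and 67.6, 33.2, 46.1 and 30.2 TPM in resting cells. Il21r had a log2 fold change of -2.09 ± 0.52 (adjusted p = 0.0034) and a difference from LPS-treated cells of -2.15 ± 0.51 (adjusted p = 0.00623). 18 of 19 lymphomas were below every normal sample, and the call held under all 18 other settings (-1.90 in lung, -2.42 in node lymphomas, -2.07 and -2.11 for joined and separated names). Tnfrsf1b, the second TNF receptor, fell (log2 fold change -1.63 ± 0.53, adjusted p = 0.0208), and so did Ifngr2, a chain of the interferon-gamma receptor (log2 fold change -1.28 ± 0.35, adjusted p = 0.00677). Both were level after LPS. The difference from LPS-treated cells did not pass for Tnfrsf1b (-1.48 ± 0.53, adjusted p = 0.061) or Ifngr2 (-0.93 ± 0.35, adjusted p = 0.0748), and the call of Tnfrsf1b was lost under 6 settings, among them without the wt or the cr resting sample (adjusted p = 0.0958 and 0.0569). Tnfrsf21, death receptor 6, fell in both contrasts but further in the lymphomas. Tnfrsf21 had a log2 fold change of -2.43 ± 0.25 and a difference from LPS-treated cells of -1.59 ± 0.23. Only 1 lymphoma reached 1 TPM, so Tnfrsf21 entered both comparisons through the normal cells and no test is given.

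NF-kappaB, the transcription factor family that CD40 and LPS both activate, had 14 of 26 listed subunits and feedback genes lower and none higher in the lymphomas (median log2 fold change -1.25). Over all genes 17.4% were lower. Without the libraries rich in Gm10800 8 fell, against 10.4% of all genes. Of the 14, 9 also fell after LPS, 2 were level and 3 unresolved. Traf1, an adaptor of TNF receptors and an NF-kappaB target, was at 0.488 to 58.2 TPM with a median of 2.65 in the lymphomas, against 129, 37.1, 56.7 and 60.5 TPM after LPS and 70.6, 74.6, 42.9 and 35.97 TPM in resting cells. 17 of 19 lymphomas were below all 8 normal samples, and its LPS interval was too wide for the level class. Traf1 had a log2 fold change of -3.28 ± 0.86 (adjusted p = 0.00533) and a difference from LPS-treated cells of -3.54 ± 0.87 (adjusted p = 0.00836). Nfkbiz, a nuclear IkappaB protein that acts with NF-kappaB, was level after LPS and fell (log2 fold change -1.75 ± 0.57, adjusted p = 0.0207) in the lymphomas, with the call lost without the wt resting sample (adjusted p = 0.114). Its difference from LPS-treated cells did not pass (-1.46 ± 0.56, adjusted p = 0.0832). Nfkb2, the subunit of the noncanonical pathway, was at 1.37 to 87.1 TPM with a median of 10.99 in the lymphomas, against 66.3, 26.7, 42.1 and 40.3 TPM after LPS and 89.8, 56.6, 59.1 and 50.4 TPM in resting cells. Nfkb2 had a log2 fold change of -2.35 ± 0.64 (adjusted p = 0.00679), and its difference from LPS-treated cells did not pass (-1.77 ± 0.64, adjusted p = 0.0672). Cd83, an activation marker, was at 0.376 to 236 TPM with a median of 13.6 in the lymphomas, against 130.1, 52.6, 92.4 and 78.4 TPM after LPS and 275, 116, 136 and 119 TPM in resting cells. Cd83 had a log2 fold change of -3.65 ± 1.20 (adjusted p = 0.0226), and its difference from LPS-treated cells did not pass either (-2.81 ± 1.21, adjusted p = 0.125). Without the wt resting sample its adjusted p was 0.0879, and it also missed 0.05 without the cr or the co sample (0.0507 and 0.0542). Ccl3, a chemokine gene, separated the groups at 0 to 4.599 TPM with a median of 0.6705 in the lymphomas, against 8.205, 11.96, 11.5 and 11.7 TPM after LPS and 31.4, 14.5, 13.8 and 16.3 TPM in resting cells. Ccl3 had a log2 fold change of -3.20 ± 0.40 (adjusted p = 1.5e-06) and a difference from LPS-treated cells of -2.51 ± 0.39 (adjusted p = 8.4e-05). Rel, encoding the subunit c-Rel, fell (log2 fold change -2.17 ± 0.39, adjusted p = 1.5e-04) beside an LPS change of -2.14, and the feedback gene Tnfaip3 fell (log2 fold change -2.56 ± 0.62, adjusted p = 0.00266) beside an LPS change of -1.99. Their differences from LPS-treated cells did not pass (-0.03 ± 0.37 for Rel and -0.57 ± 0.62 for Tnfaip3).

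Ccl22, a chemokine gene that draws T cells through CCR4, went opposite ways: 0 to 1.37 TPM with a median of 0.102 in the lymphomas, against 10.7, 11.6, 13.01 and 11.9 TPM after LPS and 2.43, 13.7, 1.26 and 1.26 TPM in resting cells. 18 of 19 lymphomas lay below every normal sample, and the cr resting sample, at 13.7 TPM, stood above the LPS samples. Ccl22 had a log2 fold change of -1.73 ± 0.31 and a difference from LPS-treated cells of -3.41 ± 0.20. Only 1 lymphoma reached 1 TPM, so Ccl22 entered the test through the resting samples and no test is given. Dendritic cells also make CCL22 and CD83, and summed dendritic cell markers were 30.5 to 141 TPM in the lymphomas (median 45.6), 88.6 to 123 after LPS (median 93.9) and 74.8 to 201 in resting cells (median 81.6). 6 of 9 such markers were called lower in the lymphomas, against 17.4% of all genes, and the part of dendritic cells in these changes was not tested.

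**Figure D3:**
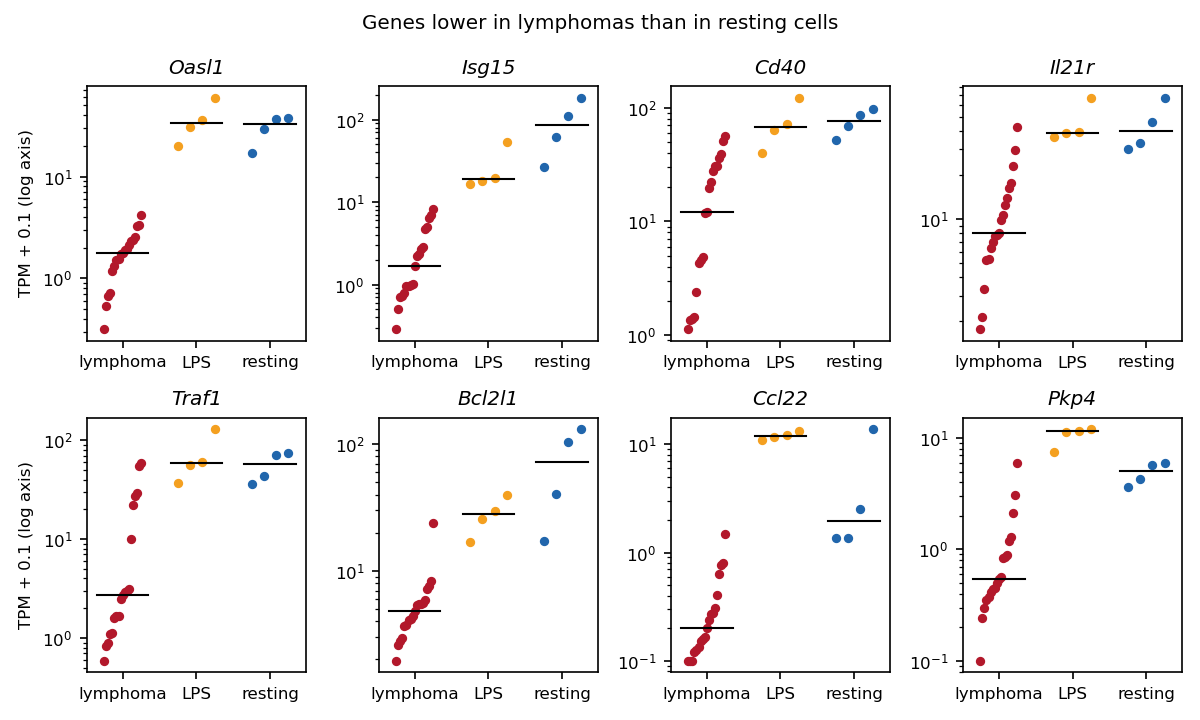
TPM plus 0.1 on a log axis for 8 genes lower in the lymphomas, with 1 point per sample and a black line at the median, for 19 lymphomas, 4 LPS-treated and 4 resting samples. Oasl1 and Isg15 show no lymphoma within the resting range, and Cd40, Il21r and Traf1 sit at similar levels in LPS-treated and resting cells and lower in most lymphomas.

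Most genes of the BCL2 family were not called, and the gene for BCL-XL was among those that fell. Of 25 tested members and death genes, 8 fell and 1 rose in the lymphomas (median log2 fold change -0.29), against 17.4% lower and 14.5% higher over all genes. Without the libraries rich in Gm10800 4 fell, near the 10.4% of all genes. Bcl2l1 (chromosome 2, 152780668 to 152831728), encoding the anti-apoptotic protein BCL-XL, was at 1.85 to 23.9 TPM with a median of 4.72 in the lymphomas, against 39.8, 16.8, 29.8 and 25.7 TPM after LPS and 17, 131, 40.6 and 103 TPM in resting cells. 18 of 19 lymphomas were below all 8 normal samples, although the resting samples themselves differed widely (log2 fold change -3.27 ± 0.42, adjusted p = 1.9e-06; difference from LPS -2.24 ± 0.35, adjusted p = 7.7e-05). Resting Bcl2l1 was lowest in wt, next in co and highest in cr and hv, as were haemoglobin (1.148, 5.575, 10.862 and 10.989%) and the macrophage sum, and their part in the fall was not tested. The call held under all 18 other settings. Bcl2a1b, encoding the A1 protein, was at 0.421 to 106 TPM with a median of 5.51 in the lymphomas, against 196, 72.1, 146 and 95.2 TPM after LPS and 109, 106, 43.5 and 54.4 TPM in resting cells, and its call was lost without each resting sample in turn. Bcl2a1b had a log2 fold change of -2.79 ± 1.07 (adjusted p = 0.0476) and a difference from LPS-treated cells of -3.50 ± 1.07 (adjusted p = 0.0312). Its near copy Bcl2a1a fell (log2 fold change -2.95 ± 0.52, adjusted p = 1.3e-04), and kallisto may divide reads between the 2 in either way. Bcl2 was not called (log2 fold change -1.34 ± 0.62, adjusted p = 0.102), at 2.05 to 51.7 TPM with a median of 7.57 in the lymphomas, against 25.1, 8.19, 14.8 and 15.2 TPM after LPS and 32.8, 18.6, 24.6 and 18.1 TPM in resting cells.

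Genes induced by interferon were lower in the lymphomas as a group. Of 56 tested interferon effectors, 46 fell and none rose, with a median log2 fold change of -2.27, against 17.4% lower over all genes, and 44 fell without the libraries rich in Gm10800. Macrophage markers, with median sums of 86.8 TPM in the lymphomas, 61.2 TPM after LPS and 826 TPM in resting cells, and erythroid genes moved with them. Of the 46, 16 had resting values in cr and hv above those in wt and co, the order of the haemoglobin and macrophage sums, against 26% of all genes called lower. Of the 46, 41 also fell after LPS, 4 were unresolved and 1, Oasl1, was level. Oasl1 (chromosome 5, 114923240 to 114937915) encodes an oligoadenylate synthetase-like protein, known in the mouse to restrain translation of IRF7. It was at 0.217 to 4.05 TPM with a median of 1.66 in the lymphomas, against 59.4, 19.7, 30.6 and 35.8 TPM after LPS and 36.5, 37.4, 29.1 and 17.04 TPM in resting cells. No lymphoma came near either normal group. Oasl1 had a log2 fold change of -3.53 ± 0.31 (adjusted p = 3.4e-09) and a difference from LPS-treated cells of -3.75 ± 0.32 (adjusted p = 1.2e-08). It was -3.58 in lung and -3.44 in node lymphomas, and -3.59 and -3.47 by joined and separated names.

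Isg15 (chromosome 4, 156199424 to 156200818), a ubiquitin-like protein gene, was at 0.186 to 8.13 TPM with a median of 1.56 in the lymphomas, against 53.3, 16.4, 19.4 and 18.2 TPM after LPS and 26.4, 185, 60.8 and 112 TPM in resting cells. All lymphomas lay below all 8 normal samples. Isg15 had a log2 fold change of -4.74 ± 0.50 (adjusted p = 9.7e-08) and a difference from LPS-treated cells of -3.10 ± 0.47 (adjusted p = 5.9e-05). Ifih1, a pattern recognition gene encoding the RNA sensor MDA5, was at 0.0799 to 10.99 TPM with a median of 2.03 in the lymphomas, against 40.6, 14.5, 23.01 and 22.4 TPM after LPS and 10.7, 31.7, 13.4 and 21.8 TPM in resting cells, so all lymphomas were below all LPS samples. Ifih1 had a log2 fold change of -2.56 ± 0.58 (adjusted p = 0.00148) and a difference from LPS-treated cells of -2.94 ± 0.58 (adjusted p = 0.00103). Rsad2, the antiviral protein viperin, was at 0.0743 to 3.48 TPM with a median of 0.522 in the lymphomas, against 3.09, 6.31, 1.76 and 3.18 TPM after LPS and 43.6, 487, 122 and 287 TPM in resting cells, and it was low in both the lymphomas and the LPS-treated cells. Rsad2 had a log2 fold change of -6.48 ± 0.45 (adjusted p = 7.1e-11). The close relative of Oasl1, Oasl2, behaved like Rsad2 in its levels, at 0 to 6.34 TPM with a median of 0.961 in the lymphomas, against 7.57, 2.44, 1.98 and 2.38 TPM after LPS and 34.2, 96.0, 47.05 and 90.98 TPM in resting cells. Oasl2 had a log2 fold change of -4.96 ± 0.45 (adjusted p = 7.1e-09). Resting Isg15, Rsad2 and Oasl2 were lowest in wt and highest in cr and hv, like the haemoglobin share, whose part was not tested; Oasl1 was lowest in hv. Of 15 factors and regulators of the interferon pathway 7 fell, against 17.4% of all genes, and all 7 also fell after LPS. Irf7 fell (log2 fold change -4.33 ± 0.53, adjusted p = 1.0e-06). The negative regulator Usp18 fell (log2 fold change -3.78 ± 0.51, adjusted p = 3.8e-06).

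The promoters of these genes were searched for the core of the interferon-stimulated response element, which is GAAA, any 2 bases and GAAA, on both strands, in windows running from 250 bases before to 50 after each start in RefSeq (GRCm38.p6). It occurred in 3.44% of all 32851 promoters and in 4.1% of tested genes that had a promoter entry. Of 44 interferon effectors with an entry, 24 (54.5%) had a match, as did 7.3% of genes called lower and 3.0% of genes called higher. Among the effectors called lower, 17 of 35 with an entry (48.6%) had a match, a smaller share than in the whole list. A match is a description of the letters and no evidence of binding. The 160 bases before the start are shown for 3 of the effectors described, with matches in capitals: Isg15 (chr4:156200819-156200978, minus strand) holds 3 matches that overlap one another, starting 78, 72 and 66 bases before the start, Rsad2 (chr12:26456453-26456612, minus strand) holds 1, read on the opposite strand and starting 120 bases before it, and Oasl1 (chr5:114923080-114923239, plus strand) holds none in this window. No match was found in the same stretch for Ifih1, Oasl2 or Irf7 either, genes that differ among themselves after LPS.
Isg15: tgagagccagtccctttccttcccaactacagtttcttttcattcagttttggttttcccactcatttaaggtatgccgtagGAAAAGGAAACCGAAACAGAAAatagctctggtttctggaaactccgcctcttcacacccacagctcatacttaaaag
Rsad2: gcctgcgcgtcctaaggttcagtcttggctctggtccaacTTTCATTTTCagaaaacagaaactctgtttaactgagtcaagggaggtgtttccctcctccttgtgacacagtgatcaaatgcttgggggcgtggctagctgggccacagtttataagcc
Oasl1: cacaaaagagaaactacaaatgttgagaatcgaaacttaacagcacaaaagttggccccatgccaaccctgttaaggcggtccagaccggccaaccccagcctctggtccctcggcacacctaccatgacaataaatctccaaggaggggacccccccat

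Outside these lists, 7 named genes were lower in all lymphomas than in all resting samples and level after LPS. Eid1, an inhibitor of p300 acetylation, was at 0.402 to 17 TPM with a median of 4.92 in the lymphomas, against 20.1, 15.2, 25.5 and 26.1 TPM after LPS and 22.4, 27.3, 20.9 and 23.96 TPM in resting cells. Eid1 had a log2 fold change of -2.17 ± 0.51 (adjusted p = 0.002) and a difference from LPS-treated cells of -2.03 ± 0.51 (adjusted p = 0.00888). Slc39a2, a zinc importer gene, was at 0.664 to 2.17 TPM with a median of 1.24 in the lymphomas, against 6.07, 8.75, 17.1 and 8.36 TPM after LPS and 8.49, 4.904, 6.66 and 8.07 TPM in resting cells. Slc39a2 had a log2 fold change of -1.80 ± 0.18 (adjusted p = 3.1e-08) and a difference from LPS-treated cells of -2.20 ± 0.20 (adjusted p = 4.8e-08). Both groups of normal cells lay wholly above the lymphomas for Slc39a2, and the lymphoma range for Eid1 overlapped LPS-treated cells in 1 sample. March5, a ubiquitin ligase of mitochondria, fell (log2 fold change -1.20 ± 0.20, adjusted p = 6.0e-05), and so did Slx1b, a nuclease gene whose product cuts branched DNA (log2 fold change -1.04 ± 0.21, adjusted p = 4.9e-04). Resting March5 and Usp15 were higher in cr and hv than in wt and co, like the haemoglobin share, whose part was not tested. The deubiquitinase gene Usp15 fell (log2 fold change -0.77 ± 0.17, adjusted p = 0.00139), as did the splicing factor gene Wbp11 (log2 fold change -0.77 ± 0.19, adjusted p = 0.00294) and Zfp800 (log2 fold change -0.46 ± 0.17, adjusted p = 0.0397). March5 and Wbp11 had LPS intervals that excluded 0 on the same side. Their LPS changes were -0.50 (-0.94 to -0.06) and -0.49 (-0.95 to -0.02). For Usp15, Wbp11 and Zfp800 the difference from LPS-treated cells did not pass (adjusted p = 0.0726, 0.306 and 0.492 in that order), and the call of Zfp800 was lost without each resting sample in turn. Tes, encoding testin of focal adhesions and named after its values were seen, had the second largest fall of the level genes outside immunoglobulin segments, at 0 to 35.03 TPM with a median of 0.3397 in the lymphomas, against 26.8, 11.3, 17.1 and 15.1 TPM after LPS and 30.5, 20.1, 24.9 and 19.9 TPM in resting cells. Tes had a log2 fold change of -3.35 ± 0.81 (adjusted p = 0.0028). 1 lymphoma exceeded all normal samples.

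Beside Ccl22, other genes outside the immunoglobulin segments fell in the lymphomas and went up after LPS. Pkp4, a plakophilin of cell junctions, was at 0 to 5.82 TPM with a median of 0.4398 in the lymphomas, against 11.3, 7.38, 11.9 and 11.5 TPM after LPS and 3.51, 5.91, 4.19 and 5.66 TPM in resting cells. Pkp4 had a log2 fold change of -1.73 ± 0.35 (adjusted p = 4.8e-04). Smim3, a small membrane protein gene, was at 0.0445 to 2.26 TPM with a median of 0.3697 in the lymphomas, against 17.1, 8.104, 11.4 and 9.795 TPM after LPS and 3.55, 3.69, 1.98 and 2.28 TPM in resting cells. Smim3 had a log2 fold change of -1.25 ± 0.25 (adjusted p = 5.4e-04). For both genes 18 of 19 lymphomas were below all 8 normal samples. The kinase gene Stk39 fell (log2 fold change -1.22 ± 0.47), as did Eif5a2, encoding a translation factor (log2 fold change -1.03 ± 0.36, adjusted p = 0.0322). Both calls were lost without each resting sample in turn. Only 2 lymphomas reached 1 TPM for Stk39, which entered the test through the resting samples, so no test is given for it.

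**Figure D4:**
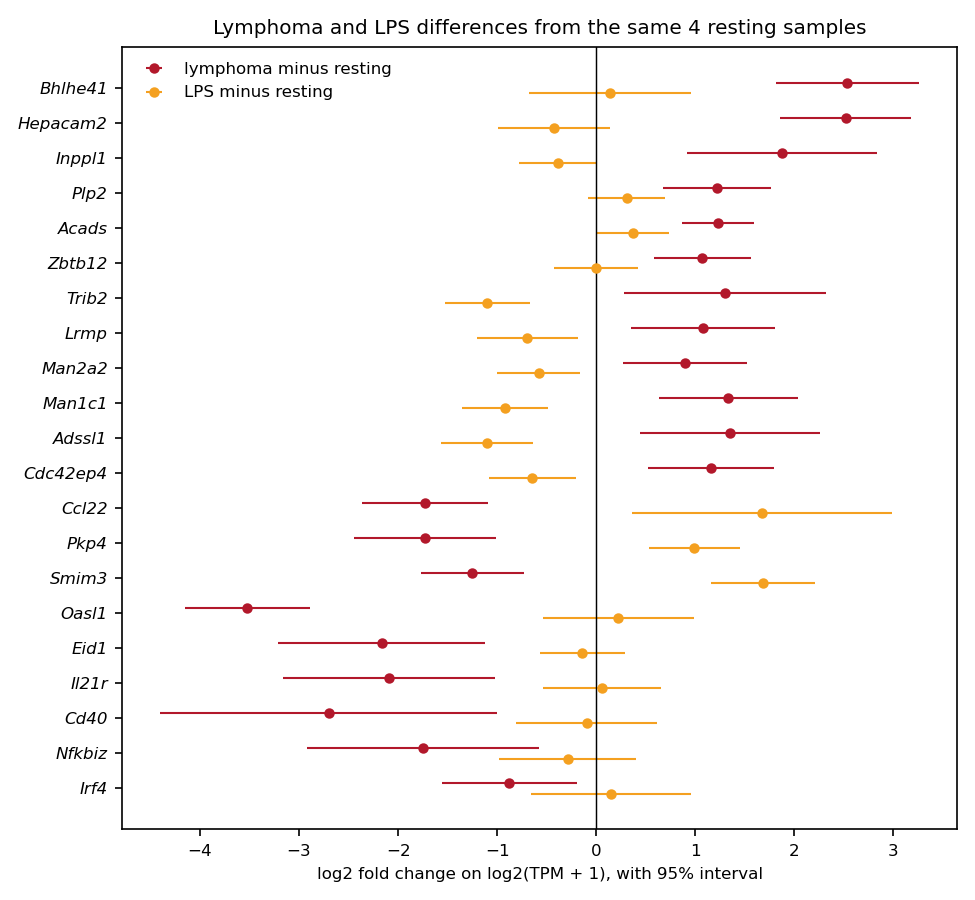
Differences on the log2(TPM + 1) scale (horizontal axis, points with 95% intervals) of lymphoma minus resting (red, upper) and LPS minus resting (orange, lower) for 21 genes. Both use the same 4 resting samples, and the LPS values chose the classes: intervals of level genes such as Bhlhe41, Oasl1 and Il21r include 0 after LPS, and those of Trib2, Man1c1, Ccl22 and Pkp4 lie on opposite sides.

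Immunoglobulin variable segments, which rearrange in each B cell to code its own receptor, made up the 64 immunoglobulin genes of the lower level class. Of 92 tested heavy chain segments (Ighv), 80 fell and none rose in the lymphomas, against 17.4% lower and 14.5% higher over all genes. Of the 80, 18 were level and 4 opposite after LPS. Ighv7-3 was at 0 to 3.43 TPM with a median of 0 in the lymphomas, against 83.8, 59.7, 26.3 and 81.2 TPM after LPS and 35.4, 29.9, 23.5 and 18.2 TPM in resting cells. Ighv7-3 had a log2 fold change of -4.25 ± 0.38 (adjusted p = 5.2e-09). Ighv1-54, Ighv2-3 and Ighv5-15 had the same order of groups, with log2 fold changes of -4.21 ± 0.60, -3.81 ± 0.44 and -2.37 ± 0.18 and no overlap. Only 3 lymphomas reached 1 TPM for Ighv1-54 and 1 for Ighv5-15, so both entered the test through the resting samples. The most abundant Ighv segment of a sample held 26.7 to 99.9% of its Ighv TPM in the lymphomas (median 94.7%), 5.1 to 31.3% after LPS (median 9.4%) and 5.0 to 6.5% in resting cells (median 5.9%). For kappa light chain segments (Igkv), 73 of 91 fell, against 17.4% of all genes, and 46 of them were level. The top Igkv segment held 20.2 to 98.3% in the lymphomas (median 80.2%), 7.1 to 40.9% after LPS and 5.8 to 7.8% in resting cells. The median number of Ighv segments at 1 TPM or more was 9 in the lymphomas, 87.5 after LPS and 89.5 in resting cells. Segments that few lymphomas reached at 1 TPM entered the test through the resting samples, so the filter favoured a fall. Kallisto shares reads among similar segments, so values of single segments are uncertain.

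Most growth and division genes moved the same way in the lymphomas and after LPS. Of 30 MYC targets 27 rose, of 36 DNA replication genes 31, of 32 ribosome biogenesis genes 27 and of 26 respiratory chain genes 23, against 14.5% of all genes. Every one of these risers was also higher after LPS (23, 24, 23 and 20 rose without the libraries rich in Gm10800, where 10.7% of all genes rose). Of 30 mitosis genes 22 rose, 21 of them also after LPS and 1 unresolved, and 11 rose without the libraries rich in Gm10800. Ldha, encoding the lactate dehydrogenase that ends glycolysis, was at 266 to 1063 TPM with a median of 576 in the lymphomas, against 1746, 1265, 1796 and 1477 TPM after LPS and 122, 178, 164 and 152 TPM in resting cells, so every lymphoma lay between the 2 normal groups (log2 fold change 1.86 ± 0.25, adjusted p = 4.4e-06; difference from LPS -1.49 ± 0.25, adjusted p = 2.3e-04). Cd59b, a complement regulator gene, was at 114 to 696 TPM with a median of 239.8 in the lymphomas, against 178, 250, 312 and 312 TPM after LPS and 14.9, 32.5, 27.98 and 25.4 TPM in resting cells. Cd59b had a log2 fold change of 3.28 ± 0.31 (adjusted p = 1.5e-08) and a difference from LPS-treated cells of -0.07 ± 0.31 (adjusted p = 0.904). Of 13 MHC class II genes 11 fell, against 17.4% of all genes, and all of them also fell after LPS. H2-Aa was at 404 to 3195 TPM with a median of 701 in the lymphomas, against 879, 480.0, 713 and 737 TPM after LPS and 5182, 3383, 3558 and 2470 TPM in resting cells. H2-Aa had a log2 fold change of -2.06 ± 0.41 (adjusted p = 4.0e-04).

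**Figure D5:**
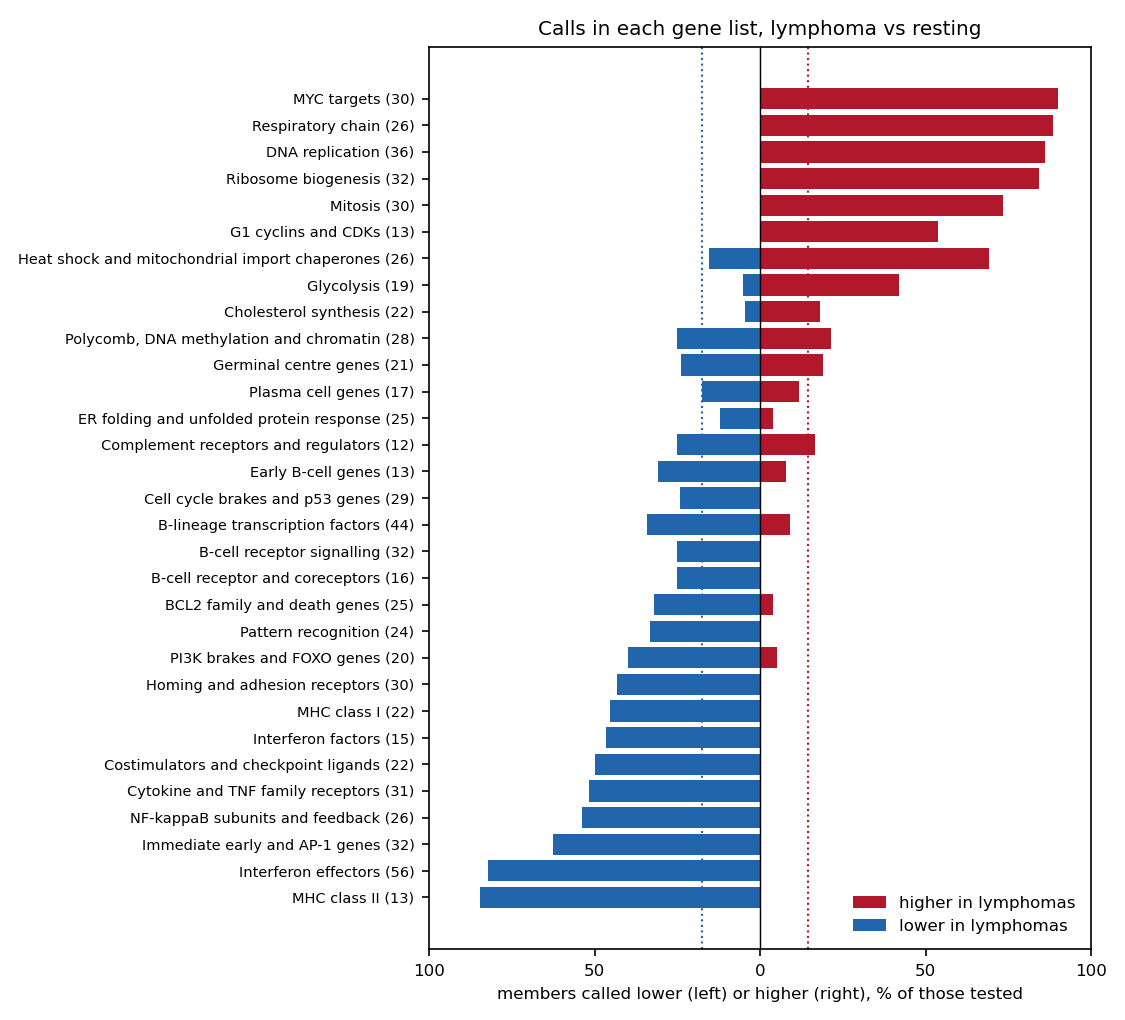
Share of the tested members of each of 31 gene lists called higher (right, red) or lower (left, blue) in lymphomas against resting cells, with the number tested in brackets. Dotted lines mark the shares over all genes, 14.5% higher and 17.4% lower; MYC targets, respiratory chain and DNA replication lie at the top and interferon effectors and MHC class II at the bottom.

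In their medians, sterol genes of the lymphomas lay near resting cells where LPS-treated cells were high, and glycolysis genes lay between the 2 normal groups. Of 22 genes of cholesterol and fatty acid synthesis 4 rose against resting cells (median log2 fold change 0.21, beside 1.72 after LPS), near the 14.5% of all genes that rose. Of 19 glycolysis genes 8 rose and 1 fell (0.72, beside 2.48 after LPS). Against LPS-treated cells 17 of the sterol genes and 13 of the glycolysis genes were lower and none of either list higher, where 8.56% of all genes tested were lower. The median differences were -1.40 and -1.38, where that of all genes was 0.03. Other growth lists also lay below LPS, with 17 of 30 MYC targets and 18 of 32 ribosome biogenesis genes lower and median differences of -0.77 and -0.67. Without the libraries rich in Gm10800, which left 2 LPS samples and 340 lower genes in all, the counts were 15 and 12. Fdps, encoding farnesyl diphosphate synthase, was at 25.7 to 83.2 TPM with a median of 44.2 in the lymphomas, against 417, 115, 239 and 208 TPM after LPS and 19.2, 26.7, 29.9 and 23.6 TPM in resting cells. It rose against resting cells (log2 fold change 0.87 ± 0.25, adjusted p = 0.00888), a call lost without the wt resting sample (adjusted p = 0.0567), but its difference from LPS-treated cells was negative (-2.25 ± 0.28, adjusted p = 4.6e-06). Hmgcs1, encoding the synthase before the rate-limiting step of cholesterol synthesis, was at 7.53 to 40.6 TPM with a median of 20.3 in the lymphomas, against 179.8, 63.8, 127 and 118 TPM after LPS and 17.3, 16.5, 20.5 and 16.4 TPM in resting cells. Its difference from LPS-treated cells was -2.49 ± 0.32 (adjusted p = 7.2e-06). Aldoa, encoding an aldolase of glycolysis, was at 72.8 to 541 TPM with a median of 194 in the lymphomas, against 1540, 989, 1371 and 1040 TPM after LPS and 218, 183, 193 and 141 TPM in resting cells, with a difference from LPS-treated cells of -2.52 ± 0.40 (adjusted p = 1.2e-04). For both genes the lymphomas spread around the resting samples. Against resting cells neither was called: the log2 fold change was 0.14 ± 0.30 (adjusted p = 0.749) for Hmgcs1 and 0.22 ± 0.40 (adjusted p = 0.704) for Aldoa. Hk1, encoding hexokinase 1, was level after LPS and fell in the lymphomas (log2 fold change -1.57 ± 0.59, adjusted p = 0.0442), the sole glycolysis gene that did so, while its difference from LPS did not pass (-1.60 ± 0.59, adjusted p = 0.073). Leaving out any 1 resting sample ended the Hk1 call (adjusted p = 0.0862 without wt, 0.0917 without cr, 0.0977 without co and 0.119 without hv).

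The level class held few other members of the lists. Hsph1, encoding the chaperone HSP110, was at 9.01 to 39.3 TPM with a median of 16.6 in the lymphomas, against 38.6, 29.97, 53.6 and 42.3 TPM after LPS and 50.4, 37.9, 51.7 and 31.7 TPM in resting cells. Of 26 heat shock and import chaperones 18 rose, against 14.5% of all genes. Hsph1 had a log2 fold change of -1.20 ± 0.30 (adjusted p = 0.00352) and a difference from LPS-treated cells of -1.14 ± 0.30 (adjusted p = 0.0123). Fyn, a SRC family kinase gene, fell (log2 fold change -1.34 ± 0.42, adjusted p = 0.0163), as did Mdm2, encoding the ligase that degrades p53 (log2 fold change -0.54 ± 0.21, adjusted p = 0.0485), Rela, the main NF-kappaB transactivator (log2 fold change -0.61 ± 0.23, adjusted p = 0.0486), the survival gene Bcl2l2 (log2 fold change -1.31 ± 0.49, adjusted p = 0.043) and the TRAIL receptor gene Tnfrsf10b (log2 fold change -0.81 ± 0.29, adjusted p = 0.0346). The calls of Mdm2, Rela and Bcl2l2 were lost without each resting sample in turn, and those of Fyn and Tnfrsf10b without at least 2 of the 4. Differences from LPS did not pass for any of these 5, with adjusted p of 0.105 for Fyn, 0.251 for Mdm2, 0.817 for Rela, 0.104 for Bcl2l2 and 0.129 for Tnfrsf10b. The LPS interval of Rela excluded 0 on the same side, with a change of -0.51 (-0.99 to -0.03).

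Some genes moved the same way in both contrasts but further in the lymphomas. Cr2, encoding the complement receptor CD21, was at 0.0292 to 34.9 TPM with a median of 3.05 in the lymphomas, against 141, 17.5, 59.2 and 44.96 TPM after LPS and 900.3, 384, 436 and 379 TPM in resting cells. Cr2 had a log2 fold change of -6.89 ± 0.67 (adjusted p = 3.0e-08) and a difference from LPS-treated cells of -3.65 ± 0.71 (adjusted p = 9.7e-04). Fcer2a, encoding the IgE receptor CD23, was at 0.132 to 145 TPM with a median of 0.467 in the lymphomas, against 60.9, 7.33, 35.01 and 28.9 TPM after LPS and 199, 64.3, 138 and 79.98 TPM in resting cells, with 1 lymphoma inside the resting range. Fcer2a had a log2 fold change of -5.45 ± 0.85 (adjusted p = 3.3e-05) and a difference from LPS-treated cells of -3.44 ± 0.88 (adjusted p = 0.01). Satb1, a chromatin organiser gene, differed from LPS-treated cells by -2.28 ± 0.68, adjusted p = 0.0266, and had fallen (log2 fold change -5.67 ± 0.69, adjusted p = 1.1e-06) against resting cells. Klf2, a quiescence factor gene, lay between: 19.6 to 136 TPM with a median of 55.9 in the lymphomas, against 10.2, 7.81, 5.94 and 7.98 TPM after LPS and 335, 136, 175 and 127 TPM in resting cells, so that all lymphomas were above all LPS samples. Klf2 had a log2 fold change of -1.81 ± 0.43 (adjusted p = 0.00241) and a difference from LPS-treated cells of 2.53 ± 0.42 (adjusted p = 1.7e-04). Bcl6, the germinal centre repressor gene, fell (log2 fold change -2.30 ± 0.35, adjusted p = 2.4e-05), and its difference from LPS-treated cells did not pass (-0.80 ± 0.35, adjusted p = 0.13).

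Several genes of known weight in B-cell lymphoma were not called. Myc was at 78.8 to 362 TPM with a median of 164 in the lymphomas, against 54.98, 155, 115 and 136 TPM after LPS and 185, 121, 109.9 and 89.01 TPM in resting cells, and the sources used here do not say whether the transgene, which the cr, co and hv normal cells also carried, is counted with it. Myc had a log2 fold change of 0.51 ± 0.32 (adjusted p = 0.231). Trp53, encoding p53, was at 0.192 to 84.5 TPM with a median of 59.4 in the lymphomas, against 109.6, 76.9, 99.6 and 115 TPM after LPS and 48.8, 63.5, 72.2 and 50.3 TPM in resting cells. Trp53 had a log2 fold change of -1.28 ± 1.18 (adjusted p = 0.422). The lymphomas spanned values from near 0 to above the resting range. Cdkn2a, the locus of p16 and p19ARF, was at 0 to 169.9 TPM with a median of 2.54 in the lymphomas, against 2.63, 12.5, 3.38 and 6.09 TPM after LPS and 0.0741, 0.521, 0.124 and 0.349 TPM in resting cells, with 12 lymphomas above the highest and 5 below the lowest resting sample. Cdkn2a had a log2 fold change of 2.94 ± 1.48. No resting sample reached 1 TPM, so Cdkn2a entered the test only through the lymphomas and no test is given. Ccnd2, encoding cyclin D2, was at 0.143 to 43.5 TPM with a median of 2.61 in the lymphomas, against 82.1, 25.4, 49.6 and 47.8 TPM after LPS and 10.3, 15.4, 15.9 and 13.9 TPM in resting cells. It was not called against resting cells (log2 fold change -1.46 ± 1.02, adjusted p = 0.28) and was lower than in LPS-treated cells (-3.17 ± 1.03, adjusted p = 0.0419), where no lymphoma reached the highest LPS sample. Pax5, the B-lineage commitment factor gene, was not called either (log2 fold change -0.53 ± 0.33, adjusted p = 0.228).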

How the data were processed

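RNA of 27 B220-purified mouse B-cell samples was sequenced, and the deposited TPM were made by the authors with kallisto 0.43 against mm10 (GRCm38) after FastQC, per the submitters' processing notes; the sources used here do not give the annotation or the strand setting. Without strand, overlapping antisense genes cannot be told apart. The 88198 transcripts were summed to 30735 genes. TPM scales every library to the same total, so a gene that takes a large share lowers all others. Groups came from the labels. Genes that reached 1 TPM in 4 or more of the samples compared were tested on log2(TPM + 1) by limma 3.58.1 (trend, robust; R 4.3.3) with Benjamini-Hochberg adjustment over all genes, in 23 samples for lymphoma against resting, 8 for LPS against resting and 23 for lymphoma against LPS. The code was tested on simulated data. Low TPM values came out as whole reads (within 0.02) in 61.0 to 76.4% of cases, too few to recover counts, so depth is an estimate from the steps.

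Some genes counted in lists and classes are not reported here by name. Members and gene lists were chosen with earlier results of these data known. Genes were named where they were called without overlap at a mean of 5 TPM or more, opposite, level or low after LPS, on no list of another cell type and neither predicted genes, pseudogenes nor immunoglobulin segments (the 12 largest each way; 15 were eligible upward and 8 downward); or where they led a list; or as a fixed set of B-cell genes. The opposite genes, Gm10451, Ptprs, Pafah1b3, Tes, Col3a1 and Sparc, and single members set beside these, were chosen after their values were seen. Alternatives changed the pseudocount, filter, scaling, threshold, interval, line term, sites, name styles and libraries. Figures were drawn with matplotlib 3.10.9.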

Additional observations from a re-analysis of the deposited data

Results flagged for a closer look

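A Dixon test marks a sample whose gap to the nearest other sample takes more than 0.829 of the range of its group of 4. It was run on 190 gene and group pairs. Chance marks about 1 in 20 only for independent, normally distributed values, which TPM of genes chosen from these data need not be. The test marked 18 pairs. The wt resting sample was the high one in 7 of them, all in genes that were lower in the lymphomas. Its TPM was 66.8 for Nfkbiz (25.6 to 30.4 in the other 3 resting samples), 275.4 for Cd83 (115.6 to 136.2), 31.4 for Ccl3 (13.8 to 16.3) and 230.1 for Irf4 (63.9 to 79.5). For Tnfaip3 it was 182.3 (89.4 to 103.8), for the complement receptor gene Cr2 900.3 (379.3 to 436) and for Bcl6 19.0 (7.30 to 8.46). This library also held 3.646% Gm10800. The cr resting sample was high for Ccl22 at 13.7 TPM (1.26 to 2.43) and for Usp18 at 54.0 TPM (24.95 to 26.3).

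Among the LPS-treated samples, the wt one stood apart for interferon genes, at 53.3 TPM for Isg15 (16.4 to 19.4 in the other 3), 7.57 for Oasl2 (1.98 to 2.44) and 16.2 for Usp18 (3.46 to 3.55). It was also high for Il21r at 67.2 TPM (36.2 to 39.3), Tnfrsf1b at 19.8 (11.9 to 13.1) and H2afv at 49.8 (29.7 to 31.7), and low for Ccl3 at 8.21 (11.5 to 12.0). The cr sample, which held 18.58% Gm10800, was low for Wbp11 at 52.9 TPM (70.2 to 72.0) and Pkp4 at 7.39 TPM (11.3 to 11.9).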

How the results depend on the processing

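Of 87 called genes with values in the text that were refitted, 56 kept their call and direction under every one of up to 18 settings that tested them. Without any 1 resting sample the calls numbered 2749 to 3222 (1389 to 1838 lower); higher opposite genes numbered 1 to 3, higher level 78 to 116, lower opposite 6 to 11 and lower level 107 to 149. Without any 1 LPS sample there were 7 to 11 higher opposite, 119 to 205 higher level, 6 to 19 lower opposite and 202 to 232 lower level genes. Without the libraries rich in Gm10800 there were 2746 calls, 1349 lower, 3 higher opposite, 84 higher level and 91 lower level, and lower members numbered 8 for NF-kappaB, 8 for B-lineage factors 5 for PI3K brakes and 4 for the BCL2 family, and 11 mitosis genes were higher (list counts chosen after seeing the data). At an adjusted p of 0.01 there were 2627 calls, 1178 higher and 1449 lower, with 1 and 81 higher opposite and level and 3 and 119 lower. With no filter 3494 genes were lower, 1280 of them level, and a filter at 5 TPM left 4 lower opposite. Median-of-ratios scaling gave 14 higher and 28 lower opposite genes and 8 higher cholesterol genes. Rescaling without Gm20594, Gm10800 and haemoglobin gave 81 higher level genes and 11 lower cell cycle brakes. Node lymphomas alone gave 1215 higher, 83 higher level and 16 lower opposite genes, joined names 18 higher opposite and 339 higher level, and separated names 1234 higher and 88 higher level. With line as a term and no wt sample there were 1527 lower, 2 higher opposite and 96 higher level genes. An interval within 1.5-fold left 49 higher and 38 lower level genes. Bhlhe41, Hepacam2, Inppl1, Oasl1, Il21r and Cd40 were not among them. The genotype pairs LPS-treated and resting samples by label; with it as a replicate block, lower opposite genes numbered 23, and the other classes stayed within 1.5 times. No paired analysis was possible for lymphoma against resting cells because lymphoma replicate numbers are accession order only. Causes of these changes were not tested. Depth and 4 resting samples limit what low genes can show: 5693 genes had an unadjusted p under 0.05.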
